A study of Homo sapiens with 6 samples.

Results

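The 10 mRNAs described here encode enzymes of glycolysis, from the hexokinase that takes in glucose to the pyruvate kinase that releases pyruvate: HK2, GPI, PFKL, ALDOA, TPI1, GAPDH, PGK1, PGAM1, ENO1 and PKM. They were chosen as a list of genes, 1 for each step, with GAPDH, a negative control of the study, beside the other steps. The deposited tables held 57905 gene entries, and all 10 members were found among them by their Ensembl identifiers. All 10 passed the filter on low counts, with 14398 genes tested in all. Counts came from total RNA of NCI-H929 (H929), a human multiple myeloma cell line, which is a malignant plasma cell line. The RNA of each sample (5 μg) was kept for 1 h at 37 °C in a buffer with 2 mM ATP and then heated to 95 °C for 5 min. In the 3 IRE1-treated samples the reaction held 2 μg of recombinant human IRE1 (ERN1, residues 467 to 977, which hold its cytoplasmic kinase and ribonuclease domains), and in the 3 controls it held no enzyme. IRE1 was thus added to extracted RNA and not to living cells, all samples came from 1 cell line, and mRNA was selected by its poly(A) tail only after the reaction.

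Glycolysis splits glucose into pyruvate in the cytosol. Hexokinase, glucose-6-phosphate isomerase, phosphofructokinase and aldolase prepare and split the sugar, and triosephosphate isomerase interconverts the resulting trioses. Glyceraldehyde-3-phosphate dehydrogenase, phosphoglycerate kinase, phosphoglycerate mutase, enolase and pyruvate kinase then recover energy as ATP and NADH. Dividing cells, tumour cells among them, are commonly rich in these mRNAs, and GAPDH is a frequent reference gene in PCR. IRE1 is a sensor of endoplasmic reticulum stress whose ribonuclease domain cuts XBP1 mRNA and other mRNAs, typically at a CUGCAG sequence in the loop of a hairpin. In the assay, an mRNA cut by the enzyme keeps its poly(A) tail on its 3′ part, and the 5′ part is lost at the selection step. A gene count adds the reads of both parts, so it falls only in part when an mRNA is cut.

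The counts on genes came to between 19615715 and 25678499 in each library. The authors' design text describes the samples as biological replicates of the cell line, and each was sequenced in its own lane, so lane and sample cannot be told apart. Of the libraries, IRE1-treated replicate 1 stood apart. A chi-square of the counts, divided by the number of genes, was 2.21 to 3.08 for any 2 controls and 3.40 for IRE1-treated replicates 2 and 3, but 7.07 and 11.02 for IRE1-treated replicate 1 against these. All 10 plasma cell and myeloma markers were detected, the lowest being CD38 at 408 to 623 counts. JCHAIN, XBP1 and IRF4 had the highest counts of them, with control means of 85399, 59733 and 27611 normalized counts. Of these markers MZB1 (log2 fold change 0.31) and TNFRSF17 (0.25) were higher in the IRE1-treated samples, PRDM1 was lower (-0.25), and 7 did not pass the test. Of all tested genes 10.3% were higher and 12.4% lower. MZB1 and TNFRSF17 have transcripts of 925 and 891 bases, and of protein-coding genes under 1000 bases 53.7% were higher. PRDM1 has 5148 bases, and of protein-coding genes with 5000 bases or more 37.4% were lower. PRDM1, XBP1 and IRF4 are IRE1 substrates in the study. Of these, XBP1 (-0.09, adjusted p = 0.143) and IRF4 (-0.10, adjusted p = 0.0948) did not pass edgeR's quasi-likelihood test. A substrate can thus miss the threshold in gene counts. The markers of other cell types had 0 to 36 counts, except for the T cell gene CD3E with 890 to 1063.

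CUGCAG was searched on the mRNA strand of the canonical transcript of each gene, in the GENCODE annotation of GRCh37. Of 12225 protein-coding genes tested, 85.3% held it at least once, and 8 of the 10 enzymes did, with 27 sites in all. GAPDH and TPI1 had none. A site was called a stem-loop site where RNAfold, given the site and 15 bases on either side, left the first G of CUGCAG unpaired in a loop that had 5 to 11 bases and a stem of 3 pairs or more. Of all genes 35.4% had a stem-loop site, and of the enzymes 6 had one, namely HK2, GPI, PFKL, PGK1, ENO1 and PKM, with 9 such sites between them. ALDOA and PGAM1 had CUGCAG in no stem-loop of this form. A match is a description of the sequence and not a cut site. The stem-loop sites of the member that was lower in the IRE1-treated samples (HK2) and of the 2 members with such sites that were higher (ENO1 and PKM) are shown, 5′ to 3′ on the mRNA strand, with CUGCAG in capitals.
HK2, exon 9 of 18, coding: cuggccgccgugCUGCAGcgcaucaaggag
HK2, exon 18 of 18, coding: gaugugucuuucCUGCAGucagaggauggc
ENO1, exon 1 of 12, 5′ UTR: ucaccucgguguCUGCAGcacccuccgcuu
PKM, exon 5 of 11, coding: agggcagcggcaCUGCAGagguggagcuga
PKM, exon 7 of 11, coding: gcauugagauucCUGCAGagaaggucuucc
The capitals lie in GRCh37 at chr2:75105963-75105968 and chr2:75117985-75117990 on the plus strand for HK2, at chr1:8938682-8938687 on the minus strand for ENO1, and at chr15:72502188-72502193 and chr15:72499545-72499550 on the minus strand for PKM. These sites stand 3987 and 2496 bases from the 3′ end of the HK2 transcript, 1717 bases from that of ENO1, and 1826 and 1307 bases from that of PKM. The other stem-loop sites were 1 in the coding sequence of PFKL (exon 19 of 22), 1 in the 3′ UTR of PGK1 (exon 11 of 11) and 2 in the 3′ UTR of GPI (exon 18 of 18). Long transcripts held the sequence more often than short ones. It was found in 67.8% of the genes with a transcript of 1000 to 1499 bases, the class of GAPDH and TPI1, and in 96.6% of those of 5000 bases or more, the class of HK2.

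The comparison of IRE1-treated with control samples asked which of these mRNAs changed in count with the enzyme. HK2, the hexokinase that commits glucose to the cell, fell by 20.6% in the fit. TPI1, GAPDH, ENO1 and PKM, which act from the triose step onward, were higher by between 11.2 and 17.3%. GPI, PFKL, ALDOA, PGK1 and PGAM1 did not pass the test. Thus 5 of 10 members had an adjusted p under 0.05 (edgeR's quasi-likelihood test, Benjamini-Hochberg over all genes), against 22.7% of all tested genes. Of the members 4 were higher and 1 was lower, while 10.3% of all tested genes were called higher and 12.4% lower. The shares varied with transcript length among protein-coding genes. Called higher were 38.1% of those of 1000 to 1499 bases (TPI1 and GAPDH), 20.5% at 1500 to 1999 (ENO1) and 9.28% at 2000 to 2999 (PKM). Of those with 5000 bases or more, the class of HK2, 37.4% were called lower. The members' median log2 fold change was 0.10, and that of all tested genes was 0.0045. With each library scaled to its own GAPDH count, the median of all genes moved to -0.15 and that of the other 9 members to -0.07, and 0 members were higher and 2 lower (0 and 3 at an unadjusted p under 0.05). Under this scaling 217 of all 14398 genes were called higher and 3422 lower. With library size alone in place of TMM, the median of all genes was -0.07, that of the members was 0.023, 2 members were higher, and the calls over all genes went from 1489 higher and 1781 lower to 683 higher and 2596 lower. The control and IRE1-treated values did not overlap for 6 members, against 39.1% of all tested genes. All 10 members together took 1.81 ± 0.0213% of the counts on genes in the controls and 1.91 ± 0.0508% in the IRE1-treated samples (SD, n = 3 each; two-sided exact permutation test p = 0.1, the smallest that 3 against 3 can give).

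**Figure D1:**
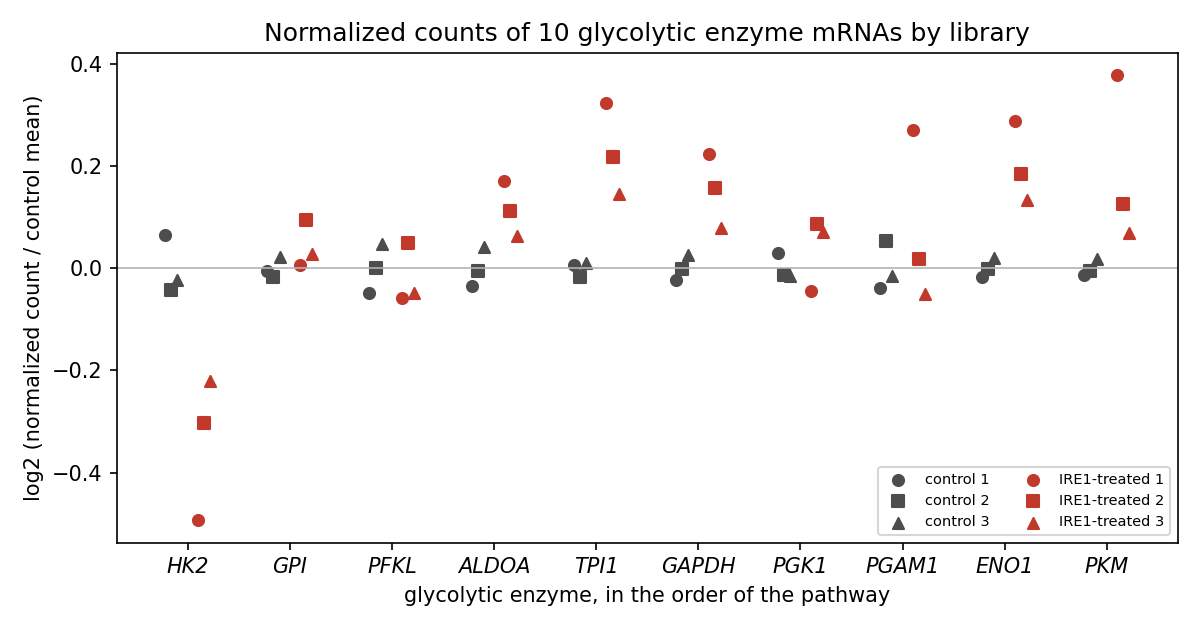
Normalized counts of the 10 mRNAs in each library, as the log2 ratio to the mean of the 3 controls, in the order of the pathway. Grey marks are controls, red marks are IRE1-treated samples, and the shape gives the replicate number, which was not used to pair the samples in the main fit. The 3 IRE1-treated values of HK2 lie below every control (-0.49, -0.30 and -0.22), those of ALDOA, TPI1, GAPDH, ENO1 and PKM lie above, and those of the other members mix with the controls.

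HK2 (ENSG00000159399, chr2:75061254-75120486 in GRCh37) phosphorylates glucose and is the inducible hexokinase of many tumours. A normalized count is the raw count over the product of library size and TMM factor, multiplied by the mean number of gene counts per library. HK2 had 2105, 1954 and 1979 normalized counts in the controls and 1429.6, 1630.4 and 1727 in the IRE1-treated samples. Every IRE1-treated value was below every control, and replicate 1 was the lowest. The log2 fold change was -0.33 (SE 0.0640, 95% interval -0.47 to -0.20, adjusted p = 0.00202 by edgeR's quasi-likelihood test). HK2 passed the test in all 17 alternative fits, with adjusted p from 1.51e-07 to 0.0373 and log2 fold changes from -0.48 to -0.19, the latter when a trend with transcript length and GC content was removed from every library.

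The next 3 steps are carried by GPI, the isomerase that turns glucose 6-phosphate into fructose 6-phosphate, by PFKL, the liver-type phosphofructokinase that makes fructose 1,6-bisphosphate, and by ALDOA, the aldolase that splits it. GPI (chr19:34850385-34893318) had 20250.1, 20082 and 20647 normalized counts in the controls and 20404, 21687 and 20718 in the IRE1-treated samples. PFKL (chr21:45719934-45747259) had 5269.9, 5452 and 5636 in the controls and 5236, 5642 and 5269.7 with IRE1. In both genes the groups overlapped. The log2 fold change was 0.04 for GPI (95% interval -0.05 to 0.14, adjusted p = 0.539) and -0.02 for PFKL (-0.12 to 0.09, adjusted p = 0.830). ALDOA (chr16:30075485-30081778) had 54244, 55321 and 57146 normalized counts in the controls and 62574, 60082 and 58008 with IRE1. Its 3 IRE1-treated values lay above all controls, and the log2 fold change of 0.12 (SE 0.0450, 95% interval 0.02 to 0.21) did not pass the test (adjusted p = 0.0753). ALDOA did pass without IRE1-treated replicate 3 (0.15, adjusted p = 0.0180) and with DESeq2 (adjusted p = 0.0468).

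TPI1 (ENSG00000111669, chr12:6976283-6980112) interconverts the trioses made by aldolase. It had 11248, 11075 and 11283 normalized counts in the controls (SD 112) and 14006, 13023 and 12394 with IRE1. Every IRE1-treated value was above every control, and replicate 1 was the highest. TPI1 had a log2 fold change of 0.23 (SE 0.0498, 95% interval 0.12 to 0.34, adjusted p = 0.00414), the largest rise among the 10. It passed with each library left out in turn (0.18 to 0.28). It did not pass with GAPDH scaling (0.08, adjusted p = 0.194) or with the trend of length and GC removed (0.08, adjusted p = 0.174).

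GAPDH (ENSG00000111640, chr12:6643678-6647540), which oxidizes glyceraldehyde 3-phosphate, was the most abundant member. It had 115993, 117815 and 119983 normalized counts in the controls and 137623, 131491 and 124443 with IRE1. The groups did not overlap, and the distance of the nearest values, those of control 3 and IRE1-treated replicate 3, was less than that between IRE1-treated replicates. GAPDH had a log2 fold change of 0.15 (SE 0.0455, 95% interval 0.06 to 0.25, adjusted p = 0.0239). Leaving out control replicate 1, 2 or 3 ended the call (adjusted p = 0.120, 0.119 and 0.0627), as did leaving out IRE1-treated replicate 2 (0.0877), while it held when IRE1-treated replicate 1 (0.0101) or 3 (0.00161) was left out. It was also lost with library size only (0.08, adjusted p = 0.129), with limma on CPM (0.0543) and with the replicate number as a block (0.0665). With the trend of length and GC removed the log2 fold change was 0.0022 (adjusted p = 0.977).

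The study normalized its quantitative PCR to GAPDH and also measured GAPDH as a negative control. Its pair of GAPDH primers is shown because the primers mark the part of the mRNA that its PCR read.
GAPDH primer F: gggtggaatcatattggaacatgta
GAPDH primer R: cagggctgcttttaactctggtaa
Both match the canonical GAPDH transcript exactly, the F primer in antisense orientation at bases 209 to 233 (chr12:6645853-6645877, exon 4 of 9) and the R primer in sense orientation at bases 133 to 156 (chr12:6645687-6645710, exon 3 of 9). The 101 bases between their outer ends lie in the coding sequence near the 5′ end of a transcript of 1285 bases, and hold CUGCAG 0 times.

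PGK1 and PGAM1 carry the following steps. PGK1, the first enzyme of the pathway to yield ATP, had 27783, 26961 and 26921 normalized counts in the controls and 26398, 28916 and 28584 with IRE1 (chrX:77166236-77384792). PGAM1, the mutase that moves the phosphate of phosphoglycerate, had 4187, 4465 and 4254 in the controls and 5190.4, 4355 and 4155 with IRE1 (chr10:99185948-99193201). The groups overlapped in both genes, and in PGAM1 the IRE1-treated values held both the highest and the lowest of the 6. In the fit the log2 fold change was 0.04 for PGK1 (95% interval -0.06 to 0.14, adjusted p = 0.604) and 0.09 for PGAM1 (-0.06 to 0.23, adjusted p = 0.403). Without IRE1-treated replicate 1 PGAM1 was at -0.01. PGK1 passed as higher where the trend of length and GC was removed (0.18, adjusted p = 0.00648).

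ENO1 (ENSG00000074800, chr1:8921059-8939249), the enolase that makes phosphoenolpyruvate, had 74103, 74871 and 75977 normalized counts in the controls and 91508.5, 85178 and 82230.1 with IRE1. All 3 IRE1-treated values were above the controls. The log2 fold change was 0.20 (SE 0.0466, 95% interval 0.10 to 0.30, adjusted p = 0.00602). ENO1 passed with each library left out in turn, and did not pass with GAPDH scaling (0.05, adjusted p = 0.289) or with the trend of length and GC removed (0.09, adjusted p = 0.103).

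PKM (ENSG00000067225, chr15:72491370-72524160), the pyruvate kinase of most tissues, had 72925, 73310.2 and 74447 normalized counts in the controls and 95551, 80248 and 77119 with IRE1. All IRE1-treated values were above the controls, and most of the rise came from 1 library: the log2 distance from the control mean was 0.38 in IRE1-treated replicate 1, 0.13 in replicate 2 and 0.07 in replicate 3. The log2 fold change was 0.20 (SE 0.0630, 95% interval 0.06 to 0.33, adjusted p = 0.0345), and 0.10 without IRE1-treated replicate 1 (adjusted p = 0.0311). The call was lost without control replicate 1, 2 or 3 (adjusted p = 0.125, 0.125 and 0.0901), without IRE1-treated replicate 2 (0.0572), with library size only (0.12, adjusted p = 0.116) and with limma on CPM (0.0502). It was also lost with GAPDH scaling (0.04, adjusted p = 0.562) and with the trend of length and GC removed (0.13, adjusted p = 0.134). The counts do not separate the PKM1 and PKM2 mRNAs, which share most exons.

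IRE1-treated replicate 1 was the library farthest from the control mean for 8 of the 10 members, and for 54.5% of all tested genes. Replicate 2 was the farthest for GPI and PGK1, and replicate 3 for 0 members. Without replicate 1, the members called were again 4 higher and 1 lower, with a median log2 fold change of 0.09.

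**Figure D2:**
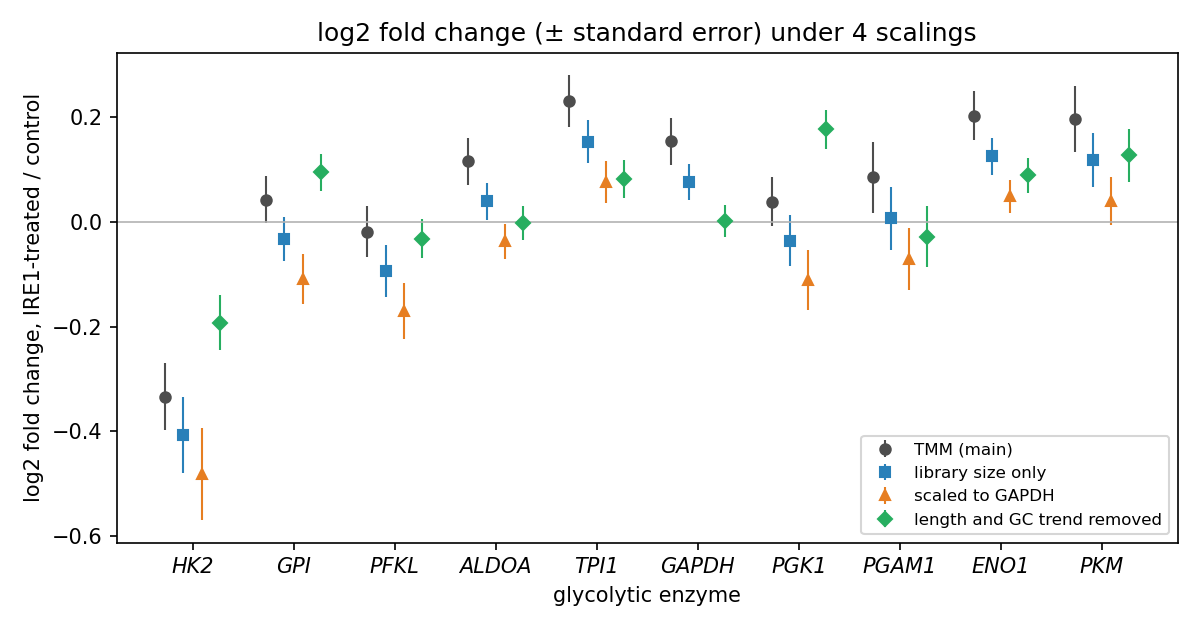
log2 fold change of each mRNA (IRE1-treated against control, n = 3 each) with its standard error as a bar, under TMM scaling, library size only, scaling to GAPDH (which leaves GAPDH itself without a value) and with the trend of length and GC removed. HK2 is below 0 under all 4 (-0.33, -0.41, -0.48 and -0.19), TPI1, ENO1 and PKM are above 0 under all 4, and GPI, ALDOA, PGK1 and PGAM1 change sign between them.

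A ratio to GAPDH within a library does not depend on the scaling. Of the 9 ratios, 6 were lower and 3 higher in the IRE1-treated samples, and the groups did not overlap for 6 (4 lower and 2 higher), against 42.4% of all tested genes (37.1% lower and 5.29% higher). Per 100 GAPDH counts there were 1.81, 1.66 and 1.65 HK2 counts in the controls and 1.04, 1.24 and 1.39 in the IRE1-treated samples. All IRE1-treated ratios of HK2 were below the controls, with a difference of -0.49 between the mean log2 ratios. PFKL went from 4.54, 4.63 and 4.70 to 3.80, 4.29 and 4.23 per 100 GAPDH counts (log2 difference -0.17). GPI (-0.11) and ALDOA (-0.04) also had every IRE1-treated ratio below the controls. TPI1 went from 9.70, 9.40 and 9.40 to 10.2, 9.90 and 9.96 (0.08), and ENO1 from 63.9, 63.6 and 63.3 to 66.5, 64.8 and 66.1 (0.05), with every IRE1-treated ratio above the controls. PKM did not keep that order, with 62.9, 62.2 and 62.0 per 100 GAPDH counts in the controls and 69.4, 61.0 and 62.0 with IRE1. The ratios of PGK1 (-0.11) and PGAM1 (-0.07) overlapped between the groups. For the 6 ratios without overlap the two-sided exact permutation test gave p = 0.1 each, the smallest it can give with 3 against 3, and 0.15 after Benjamini-Hochberg adjustment over the 9 ratios, so none could pass 0.05. In edgeR's fit over all genes with each library scaled to GAPDH, HK2 (-0.48, adjusted p = 0.00229) and PFKL (-0.17, adjusted p = 0.0340) were the members called, both lower. In that fit 3422 of all 14398 genes were called lower and 217 higher.

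Levels between genes were compared per kilobase of the canonical transcript, on the scale of normalized counts per kilobase in the controls (mean ± SD, n = 3). GAPDH stood at 91774 ± 1554, ENO1 at 42102 ± 529 and ALDOA at 33884 ± 895. Among 14111 genes with a length they ranked 11, 49 and 61 by this level. PKM followed at 31914 ± 343, TPI1 at 8291 ± 82.6 and PGK1 at 5657 ± 101. GPI was at 4928 ± 70.4, PGAM1 at 2387 ± 80.5, PFKL at 1876 ± 63.0 and HK2 at 358 ± 14.3, rank 4133. The highest level was 257 times the lowest. No neighbours in this order overlapped in their control values, but the order of ALDOA and PKM turned with the longest annotated transcript in place of the canonical one (21930.0 against 24390.2).

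Pseudogenes and other copies bear on these counts in unequal measure. The annotation names 96 pseudogenes after the 10 enzymes, 65 of them after GAPDH, 13 after PGAM1 and none after GPI or PFKL. Of the 95 in the files, 42 had a count in at least 1 library and 6 were tested by edgeR, with 0 called and 0 at an unadjusted p under 0.05. DESeq2 and limma also called 0. The 3 with most counts were GAPDHP1 (135 to 192 counts per library, log2 fold change 0.15, adjusted p = 0.437), TPI1P1 (32 to 46; 0.09, adjusted p = 0.825) and GAPDHP65 (26 to 54; -0.09, adjusted p = 0.844). All GAPDH pseudogenes together held 228 to 354 counts, 0.186 to 0.257% of the counts of GAPDH and its pseudogenes, and those of TPI1 held 0.363 to 0.471% of its family. Summing each enzyme with its pseudogenes left 4 members higher and 1 lower, with GAPDH at 0.15 (adjusted p = 0.0241).

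Reads can also be lost, since a pair that fits several places is left out of the count, although the second read of a pair can still place it. Windows of 76 bases, the length of a read, were therefore taken at every position of each canonical transcript and searched in the whole GRCh37 genome. Of the 1727 windows of PGAM1, 1512 (87.6%) had an exact copy elsewhere. Of the 2937 copy positions 722 lay in no annotated gene, 625 within GLT8D2, 614 and 556 in the processed pseudogenes ENSG00000186076 and ENSG00000216285, 397 in PGAM4, 21 in PGAM1P8 and 2 in PGAM1P2. The larger of these annotated loci held few counts themselves, 0 to 6 for PGAM4, 6 to 17 and 2 to 11 for the 2 pseudogenes and 21 to 37 for GLT8D2. For TPI1 the share was 23.2%, for HK2 6.70%, for PGK1 3.82%, for GAPDH 3.39%, for GPI 2.99%, for ENO1 1.17% and for PKM 0.404%, and PFKL and ALDOA had 0 such windows. The level of PGAM1, and to a lesser extent that of TPI1, is thus uncertain in these files, and the effect on their fold changes was not tested. The line for pairs without a unique alignment held 10.7 to 12.6% of all entries of a library's file, with the highest share in IRE1-treated replicate 1. Genes that share exonic bases with a member had far fewer counts than it, at most 83 for the antisense transcript of GAPDH, 78 for SPSB2 beside TPI1, 12 for ENO1-AS1 and 270 for ATP7A, whose annotation overlaps PGK1, while 2 identifiers that overlap ALDOA were not matched. Whether the counting used strand is not given in the sources used here.

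**Figure D3:**
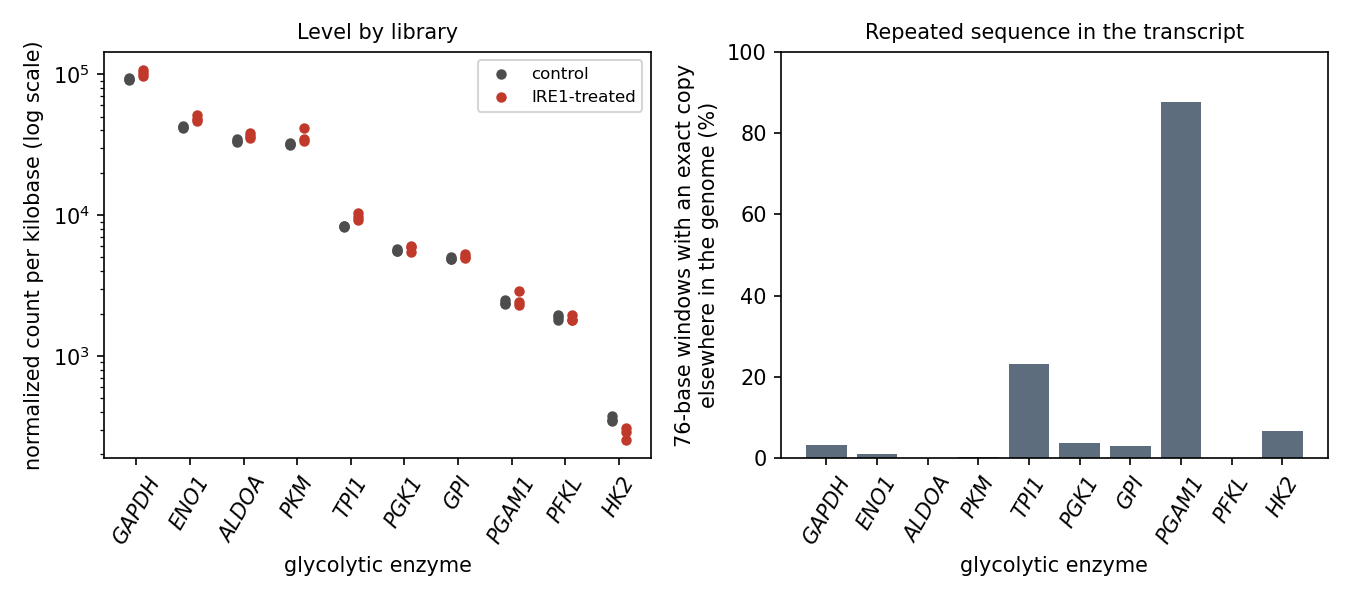
Left, the level of each mRNA in each library in normalized counts per kilobase of canonical transcript, on a log scale, ordered by the control mean, from GAPDH at 91774 to HK2 at 358. Right, the percentage of 76-base windows of that transcript with an exact copy elsewhere in the genome, which is 87.6% for PGAM1, 23.2% for TPI1 and at most 6.70% for the others.

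The members were then set beside genes of like length. Over 12225 protein-coding genes, the log2 fold change fell with transcript length (Spearman -0.64 across genes, which share the same 6 libraries and are not independent), and over the 10 members it did so too (-0.79, n = 10). The median log2 fold change was 0.24 for the 698 genes under 1000 bases and -0.20 for the 3386 genes of 5000 bases or more. HK2, at 5626 bases the longest member, lay 0.13 below the median of that class, with 27.3% of the class lower still. TPI1 and GAPDH, the shortest at 1351 and 1285 bases, belong to a class of 930 genes with a median of 0.19. TPI1 lay above 62.9% of these genes and GAPDH above 36.6%. ALDOA (0.12) lay at the median of the 1251 genes of 1500 to 1999 bases (0.12), PGAM1 above 38.4% and ENO1 above 77.1% of them. Of the 2456 genes of 2000 to 2999 bases (median 0.06), PKM lay above 85.7% and PFKL above 28.2%. GPI and PGK1, at 4125 and 4812 bases, lay above 74.9 and 74.3% of the 3504 genes of 3000 to 4999 bases (median -0.05). These lengths are those of the annotated canonical transcripts, of which 1677 and 1254 bases are coding. Which transcript forms were present in H929 was not tested. With the trend of length and GC content removed, the members called were PGK1, higher, and HK2, lower (-0.19, adjusted p = 0.0302), and the members' median was 0.042 against 0.013 for all genes.

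**Figure D4:**
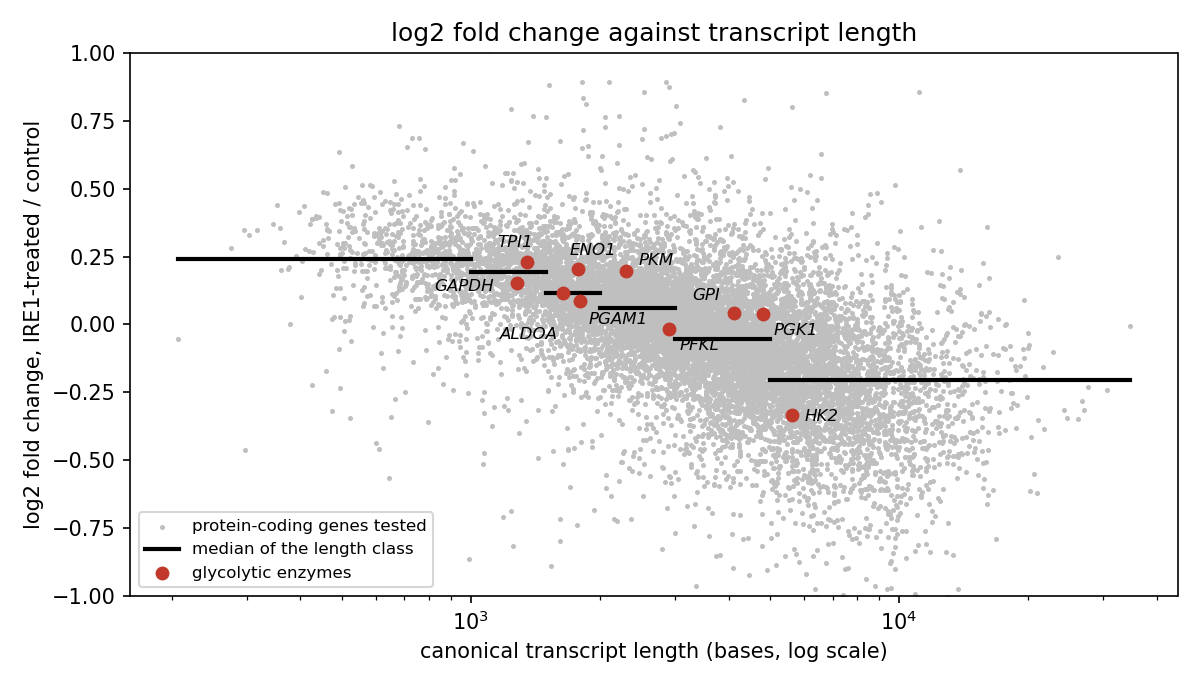
log2 fold change (IRE1-treated against control) against the length of the canonical transcript in bases (log scale) for 12225 protein-coding genes in grey, with the 10 enzymes in red and the median of each length class as a black line. The medians step down from 0.24 to -0.20, with GAPDH and ALDOA near the line of their class, PKM and ENO1 above it and HK2 below; 33 genes lie outside the axis.

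The genes whose pattern over the 6 libraries was most like that of GAPDH were sought among the 4073 other genes whose mean reached 1000 normalized counts, by the root mean square difference of centred log2 values. They were CAPNS1 (0.0116), ATRAID (0.0124) and TALDO1 (0.0126), with log2 fold changes of 0.15 each (adjusted p = 0.0435, 0.0497 and 0.0380) and transcripts of 1428, 1227 and 1199 bases. Since they were picked over the same 6 libraries, fold changes like that of GAPDH follow from the choice. ALDOA ranked 56 by this measure and ENO1 90 (0.0230 and 0.0272), TPI1 444, PKM 1039, PGAM1 1518 and HK2 3913.

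The rest of glucose metabolism was counted from 5 further lists with 58 genes, of which 39 were tested. Of these, 5 were higher, 6 lower, and 28 did not pass, close to the 10.3% higher and 12.4% lower of all tested genes, and the median log2 fold change was 0.08. The higher calls varied with the libraries, being 1 when control 1, control 2 or IRE1-treated 2 was left out, 3 when control 3 was left out and 9 when IRE1-treated 1 was left out.

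Among 16 isozymes of the same steps 7 were tested and 0 passed in edgeR's test, with 2 higher (ALDOC and ENO3) at an unadjusted p under 0.05, and 0 passed with DESeq2 or limma. With GAPDH scaling, which moved the median of all genes to -0.15, 1 isozyme (ADPGK) was called lower, as were 3422 of all 14398 genes. PFKP, the platelet-type phosphofructokinase, had the highest counts, with 11022 ± 270 normalized counts in the controls and 11430.1 ± 295 with IRE1 (SD, n = 3 each; log2 fold change 0.05, adjusted p = 0.445). ADPGK, an ADP-dependent glucokinase, was at -0.06 (adjusted p = 0.421) and the aldolase ALDOC at 0.11 (adjusted p = 0.129). HK1, the constitutive hexokinase, had 1044 normalized counts in the controls and 1070.1 with IRE1 (0.04, adjusted p = 0.705). Per kilobase, the control level of HK1 was 289.8 ± 9.76, below the 358 ± 14.3 of HK2, while ADPGK, at 1026 ± 15.3, was above it. PFKP, at 4197 ± 103, was above the 1876 ± 63.0 of PFKL, and PFKM, at 653 ± 10.3, was below. PGK2 had 0 counts in every library, and the pyruvate kinase PKLR and the sperm-specific GAPDHS had 0 to 2. Other isozymes were well above this, with 177 to 218 counts of ENO3 and 1807 to 2358 of ALDOC.

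Of the genes for glucose uptake and lactate, 10 were tested, 3 were higher and 1 was lower. Over all tested genes 10.3% were higher and 12.4% lower. By length, 38.1% of protein-coding genes of 1000 to 1499 bases (LDHB) were higher. The share was 20.5% at 1500 to 1999 bases (BSG) and 9.28% at 2000 to 2999 (LDHA). Of those with 5000 bases or more (SLC16A7) 37.4% were lower. LDHA and LDHB, which reduce pyruvate to lactate, rose by 0.12 (adjusted p = 0.0490) and 0.25 (adjusted p = 0.00184) on the log2 scale. LDHA had 49377, 51098 and 50337 normalized counts in the controls and 54811.5, 54311 and 54690.5 with IRE1, with no overlap. BSG, a chaperone of lactate transporters, rose by 0.16 (adjusted p = 0.0210). The monocarboxylate transporter SLC16A7 was lower, with a log2 fold change of -0.69 (SE 0.176, adjusted p = 0.0111) at 77.5 ± 8.39 normalized counts in the controls and 47.9 ± 6.24 with IRE1.

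Of 7 regulators of flux tested, 4 were lower and 0 higher in edgeR's test, and 0 were higher at an unadjusted p under 0.05 or with DESeq2 or limma. Over all tested genes 12.4% were lower and 10.3% higher. By length, PFKFB2 (7073 bases) belongs to the protein-coding genes of 5000 bases or more, of which 37.4% were lower. The other called genes, PFKFB3 (4482 bases), HIF1A (3946) and MYC (3721), belong to those of 3000 to 4999 bases, of which 11.4% were lower. MYC, a transcription factor that induces glycolytic genes, had 7594, 7877 and 7654 normalized counts in the controls and 5237, 5549 and 5848 with IRE1, with a log2 fold change of -0.47 (SE 0.0495, adjusted p = 3.80e-05). HIF1A, the oxygen-responsive factor that does the same in hypoxia, was at -0.41 (adjusted p = 0.000332). PFKFB2 and PFKFB3, which set the level of the phosphofructokinase activator fructose 2,6-bisphosphate, were at -0.60 (adjusted p = 0.00400) and -0.32 (adjusted p = 0.00773), whereas PFKFB4 was at -0.04 (adjusted p = 0.657). In all 4 called genes the IRE1-treated values lay below every control.

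In the gluconeogenesis and glycerol list 1 of 7 tested genes was higher, the glucose-6-phosphatase subunit G6PC3 (0.19, adjusted p = 0.0209). Over all tested genes 10.3% were higher and 12.4% lower. Of protein-coding genes with 1500 to 1999 bases, the class of G6PC3, 20.5% were higher. PCK2, a mitochondrial carboxykinase with the highest counts of the list, was at 0.11 (adjusted p = 0.135) and the transporter SLC37A4 at 0.03 (adjusted p = 0.766). In the pentose phosphate pathway 1 of 8 was higher, the transaldolase TALDO1 (0.15), and 1 was lower, the hexose-6-phosphate dehydrogenase H6PD (-0.22, adjusted p = 0.00648). TALDO1 belongs to the class of 1000 to 1499 bases (38.1% higher) and H6PD to that of 5000 bases or more (37.4% lower). The transketolase TKT (0.09, adjusted p = 0.176) and the dehydrogenase PGD (0.13, adjusted p = 0.0583) did not pass.

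Since GAPDH serves as a reference in PCR, 12 other common reference genes were read the same way. All were tested, with 4 higher, 1 lower and 7 not passing, beside 10.3% higher and 12.4% lower of all tested genes. Their median log2 fold change was 0.14, and that of all tested genes was 0.0045. Among the higher ones were PPIA (0.35, adjusted p = 0.000322), the ribosomal protein gene RPLP0 (0.26, adjusted p = 0.00101) and B2M (0.18, adjusted p = 0.00645), which the study also used as a negative control. TFRC, the transferrin receptor, was lower (-0.33, adjusted p = 0.0116). ACTB had 43889 ± 1007 normalized counts in the controls and 44706 ± 1984 with IRE1 (log2 fold change 0.03, 95% interval -0.07 to 0.12, adjusted p = 0.734).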

How the data were processed

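RNA-seq libraries of H929 total RNA incubated with or without recombinant IRE1 (3 each) were used. Per the paper's methods and the labels, the authors trimmed reads (cutadapt 1.12, Phred score 20), mapped them by STAR 2.5.3a to GRCh37 with the annotation of Ensembl release 87, and deposited raw read counts per gene. The submitters' processing notes also name HTSeq 0.6.1p1 and edgeR 3.24.3, with no strand or overlap setting. The 5 HTSeq summary lines held 21.4 to 23.2% of the entries of each file and were left out, leaving 19615715 to 25678499 counts on genes. The authors also deposited CPM values, used only in an alternative as log2(CPM + 1).

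The quasi-likelihood test of edgeR 4.0.16 in R 4.3.3 was run after filterByExpr and TMM scaling over all 14398 genes passing, and genes were called at a Benjamini-Hochberg adjusted p under 0.05. Counting error is part of the fit. The step was tested on simulated counts for this comparison over 14398 genes: of 50 planted changes of each size, 26 at 1.25-fold, 35 at 1.5-fold, 46 at 2-fold and 50 at 4-fold were recovered, and 9 unchanged genes were called. Ratios to GAPDH used log2 of counts with a pseudocount of 0.5. P-values measure the spread between these samples of 1 cell line. Genes were matched by identifier with GENCODE release 44 on GRCh37, and sites were folded with RNAfold 2.7.2.

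The members and lists were chosen with earlier results of these data known. Named are all members, every other list gene that passed and the 3 of each list with the highest counts, the 3 pseudogenes with most counts and the 3 genes most like GAPDH. HK1, ENO3, PGK2, PKLR, GAPDHS, CD38 and CD3E were named after their values were seen. Some list genes are not reported here by name. For TXNIP, in the regulator list, no identifier was matched. Exon counts were not used here. Alternatives were DESeq2 1.42.0, library size, upper quartile and GAPDH scaling, other filters, the replicate number as a block, removal of a loess fit (span 0.5) on transcript length and GC, both together, pseudogene sums, limma 3.58.1 on CPM, and leaving out each library.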

Additional observations from a re-analysis of the deposited data

How the results depend on the processing

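The main counts were 4 members higher and 1 lower (median log2 fold change 0.10) and, in the other glucose metabolism lists, 5 higher and 6 lower. With library size only, 2 members were higher (median 0.023), and 1 other gene was higher. With GAPDH scaling, 0 members were higher and 2 lower (median -0.071), and 0 other genes were higher and 10 lower. Over all 14398 genes that scaling gave 217 higher and 3422 lower. With the trend of length and GC removed, 1 member was higher (median 0.042), with 1 other gene higher and 3 lower, and with the replicate block added 1 member was higher (0.042), with 1 other gene higher and 2 lower. With no filter on low counts 3 other genes were higher, and with limma on CPM 2 members were higher. Leaving out each library in turn gave 2 to 5 members higher, 1 lower, medians of 0.082 to 0.15, 1 to 9 other genes higher and 1630 to 4312 genes called in all.

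The sign turned for GPI (-0.033) and PGK1 (-0.036) with library size only, for GPI (-0.11), ALDOA (-0.037), PGK1 (-0.11) and PGAM1 (-0.071) with GAPDH scaling, for ALDOA (-0.0019) and PGAM1 (-0.028) with the trend removed, and for both (-0.0020 and -0.030) with the block added. With 1 library left out PFKL ran from -0.054 to 0.0057, being above 0 when control 3 (0.0057), IRE1-treated 1 (0.0035) or IRE1-treated 3 (0.0023) was missing, and PGAM1 turned to -0.013 when IRE1-treated 1 was missing. None of these members passed the test in the main fit. Of 169 member values over the alternatives, 126 kept direction and side of the threshold, 24 lost significance, 5 gained it and 14 turned. The causes were not tested, apart from the scalings, which shift all genes together.

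Deviations of same-numbered samples from their group means correlated at -0.03, 0.0020 and -0.10 over 14398 genes. These values gave no sign that the replicate numbers pair the samples, but 3 libraries per group cannot exclude it. With the replicate block, 3 members were higher and 1 lower, 2 other genes were higher, 2613 genes were called, and GAPDH had an adjusted p of 0.0665. The 95% intervals of GPI and PGK1 reached 0.14 on the log2 scale, so a missed threshold does not show that they stayed level.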
